A study of Mus musculus with 8 samples.

Results

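The 7 genes of the haematopoietic heptad, Gata2, Runx1, Tal1, Lyl1, Lmo2, Erg and Fli1, were examined for chromatin accessibility in hematopoietic stem cells (HSCs) of young and old mice. Their loci held 172 of the 126871 peaks of an ATAC-seq count table, in which a transposase marks open DNA and the read count over a peak follows how open it is. A peak belonged to a locus when it lay fully inside a fixed window of the mm9 genome. The windows ran from 88.050 to 88.170 Mb on chromosome 6 for Gata2, 92.590 to 92.840 Mb on chromosome 16 for Runx1, and 114.680 to 114.800 Mb on chromosome 4 for Tal1. They ran from 87.215 to 87.235 Mb on chromosome 8 for Lyl1, 103.720 to 103.830 Mb on chromosome 2 for Lmo2, 95.565 to 95.820 Mb on chromosome 16 for Erg, and 32.215 to 32.360 Mb on chromosome 9 for Fli1. There were 25 peaks at Gata2, 32 at Runx1, 17 at Tal1, 7 at Lyl1, 23 at Lmo2, 38 at Erg and 30 at Fli1.

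The libraries came from bone marrow of C57BL/6 mice, 4 from old and 4 from young animals, with no treatment or altered allele named. Cells were sorted as LSK CD150+ CD48-, that is lineage-negative, Sca-1 positive, Kit positive cells that carry CD150 and lack CD48. The labels do not give ages, nor which mice gave which replicate, so p-values rest only on the spread among these libraries, and that spread may be technical. Age and any other difference between the 2 sets of libraries cannot be told apart. Whether the sorted cells carry the open promoters of HSC genes was not analysed here, because no mm9 annotation was used.

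The heptad proteins bind DNA together at many enhancers of blood stem and progenitor cells, among them enhancers of their own genes. GATA2 is a zinc finger factor, RUNX1 is the DNA-binding subunit of core-binding factor, and TAL1 and LYL1 are related basic helix-loop-helix proteins. LMO2 binds no DNA itself and bridges the TAL1 and GATA proteins, while ERG and FLI1 are related ETS factors. The data give accessibility at the loci, not the level or the binding of these proteins.

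RefSeq promoter sequences of build GRCm38.p6 were found for 5 of the 7 genes, with 10 promoters in all, and they are shown for the letters that the heptad families bind. The 250 bases before each start were searched on both strands for the motif AGATAA of GATA factors, the ETS motifs CCGGAA and CAGGAA, the RUNX motif TGTGGT, and the E-boxes CAGCTG and CAGATG. Of the 10 promoters 5 held a match, against 62.3% of 32851 RefSeq mouse promoters. GATA letters were in 2 of them (9.99% of all promoters) and ETS letters in 4 (35.1%). No RUNX letters (14.0%) or E-box letters (25.5%) of this spelling were in these 10 windows, which says nothing about the factors. The 5 with a match follow, 5′ to 3′, with matches in capitals. Which mm9 peak covers them was not determined, since the builds differ.
Tal1, chr4:115056176-115056425, plus strand: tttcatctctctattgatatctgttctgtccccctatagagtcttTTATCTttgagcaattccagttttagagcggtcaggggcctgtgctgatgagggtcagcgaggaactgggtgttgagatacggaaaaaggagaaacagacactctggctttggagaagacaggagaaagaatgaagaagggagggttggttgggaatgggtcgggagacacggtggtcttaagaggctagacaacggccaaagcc
Lyl1, chr8:84701207-84701456, plus strand: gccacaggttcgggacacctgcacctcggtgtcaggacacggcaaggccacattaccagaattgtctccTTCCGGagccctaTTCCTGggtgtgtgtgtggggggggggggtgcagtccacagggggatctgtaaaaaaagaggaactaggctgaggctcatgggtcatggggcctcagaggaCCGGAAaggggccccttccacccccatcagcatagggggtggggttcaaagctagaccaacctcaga
Runx1, chr16:92826075-92826324, minus strand: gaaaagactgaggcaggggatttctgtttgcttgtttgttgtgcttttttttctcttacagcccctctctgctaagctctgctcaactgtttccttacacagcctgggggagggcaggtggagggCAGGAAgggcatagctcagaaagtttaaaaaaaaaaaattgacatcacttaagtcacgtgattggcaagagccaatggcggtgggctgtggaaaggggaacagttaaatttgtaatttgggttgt
Runx1, chr16:92697330-92697579, minus strand: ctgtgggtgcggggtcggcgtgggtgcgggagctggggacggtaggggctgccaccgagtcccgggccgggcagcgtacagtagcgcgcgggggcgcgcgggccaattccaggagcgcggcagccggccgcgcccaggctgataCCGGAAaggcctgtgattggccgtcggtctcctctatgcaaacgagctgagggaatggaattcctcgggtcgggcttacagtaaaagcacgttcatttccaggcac
Erg, chr16:95459349-95459598, minus strand: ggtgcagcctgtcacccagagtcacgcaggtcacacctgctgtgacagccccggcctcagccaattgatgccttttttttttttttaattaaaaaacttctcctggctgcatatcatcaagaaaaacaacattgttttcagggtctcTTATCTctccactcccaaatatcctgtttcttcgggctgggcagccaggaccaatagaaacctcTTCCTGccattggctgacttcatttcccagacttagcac
The Lyl1 promoter held 3 ETS matches and the Tal1 promoter 1 GATA match. Each of the Runx1 promoters held 1 ETS match, and the Erg promoter 1 GATA and 1 ETS match.

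Accessibility differed between old and young HSCs at 17 of the 131 heptad peaks with enough counts to test, 10 higher and 7 lower in old, in the edgeR quasi-likelihood test at a Benjamini-Hochberg adjusted p below 0.05. That is 13% of the tested peaks of these loci, where 20.5% of all 73164 tested peaks were called (10.0% higher and 10.4% lower). Levels are in CPM, read counts rescaled so that libraries of different depth can be compared, and a negative log2 fold change means lower in old. The median log2 fold change was -0.02 over the 131 heptad peaks and 0.01 over all tested peaks. The old and the young libraries did not overlap at 20 of the 131 peaks, or 15.3%, against 21.1% of all tested peaks. In the 250000 bases on each side of the windows, 46 of 228 tested peaks were called, or 20.2%. The heptad share was below that of all peaks in the main setting and in 15 of 16 alternatives. The exception was a minimum mean count of 50, under which 11 of 47 heptad peaks were called, or 23.4% against 21.7%. The difference between these shares was not tested.

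Of the 17 called heptad peaks, 9 were in the strongest quintile of mean CPM over all tested peaks. There, above 19.6 CPM, 9 of 29 heptad peaks were called, which is 31.0% against 22.2% of all peaks. Among these 9, the Gata2 peaks from 88055895 and 88152915, the Runx1 peak from 92822152 and the Tal1 peak from 114735147 lost their call in some alternatives. The difference between the shares was not tested. In the other 4 quintiles, from weak to strong, 1 of 19, 2 of 22, 2 of 32 and 3 of 29 heptad peaks were called, and all peaks there were called at 16.8%, 18.4%, 21.0% and 24.0%. Tested heptad peaks were narrower than all tested peaks (median width 495 against 620 bases) with a median mean level of 7.60 against 6.45 CPM. The remaining 41 heptad peaks had too few counts to test, at a mean of no more than 2.13 CPM. Of these, 15 lay at Runx1 and 13 at Erg.

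**Figure D1:**
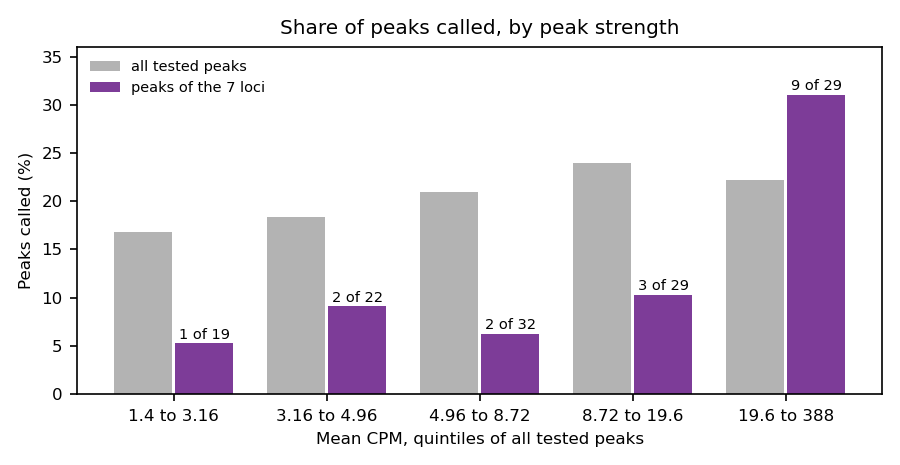
Share of peaks called (y axis, percent) against peak strength (x axis, mean CPM in quintiles of all tested peaks) for all tested peaks (grey) and the peaks of the 7 loci (purple), with the number called over each purple bar. The purple bars stand below the grey ones in 4 quintiles and above it in the strongest, at 31.0% against 22.2%.

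Total counts per library ran from 4200905 to 5129684. Among old libraries, replicate 4 was the odd one, with a mean correlation of 0.919 to its own group (0.941 to 0.944 for the other old libraries) and 0.907 to the young one (0.842 to 0.857). Without it 15 heptad peaks were higher and 17 lower, so 32 of 134 tested were called, or 23.9% against 30.0% of all peaks (14.5% higher and 15.5% lower). All 17 peaks called with the 8 libraries were among the 32. At those 32 peaks, old replicate 4 lay beyond all young libraries in the called direction at 18 and within the young range at 12. Its level is therefore given at each peak described by its libraries, and the value without it where the call differs.

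Summed over a whole locus, old and young HSCs differed by ratios between 0.894 and 1.08. The summed level of all peaks of a locus was 0.941 of the young mean at Gata2, 0.943 at Runx1, 0.949 at Erg, 0.977 at Lmo2 and 0.997 at Lyl1, with old and young libraries overlapping at each. Tal1 was the locus whose sum was higher in every old library, at 359, 358, 369.7 and 363 CPM in old replicates 1 to 4 against 320.2, 349, 325 and 343 CPM in young ones, a ratio of 1.08. Fli1 was the locus whose sum was lower in every old library, at 179, 195, 177 and 189 CPM against 197, 212, 207 and 212 CPM, a ratio of 0.894. At these 2 loci the groups did not overlap under any of the 3 library scalings tried on the peaks. At Tal1 they did overlap under the scaling of the window test given below. The 250000 bases on each side of Tal1 were higher in old libraries as well (329 ± 5.44 CPM in old against 291 ± 9.89 in young HSCs, SD, n = 4 per group). Those on each side of Fli1 were also higher in old libraries, against the direction of the locus (370.1 ± 9.94 against 336 ± 9.11 CPM). Sums without overlap were common around the loci: they were found at 2 of the 7 loci and in the flanks of 5 of the 7, which also included Lyl1 (ratio 1.08), Lmo2 (0.883) and Erg (0.851). Nothing particular to Tal1 or Fli1 follows from the missing overlap. The sum of the Tal1 peaks was tested as the window from 114700001 to 114800000, and it was not called. Its log2 fold change was 0.08 (95% interval -0.01 to 0.16, edgeR adjusted p = 0.150). As scaled for that test, young replicate 2 had 333.2 CPM and old replicate 2 had 332.2 CPM, so the Tal1 groups overlapped. The missing overlap at Tal1 therefore depended on the scaling. No p was computed for the other sums.

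**Figure D2:**
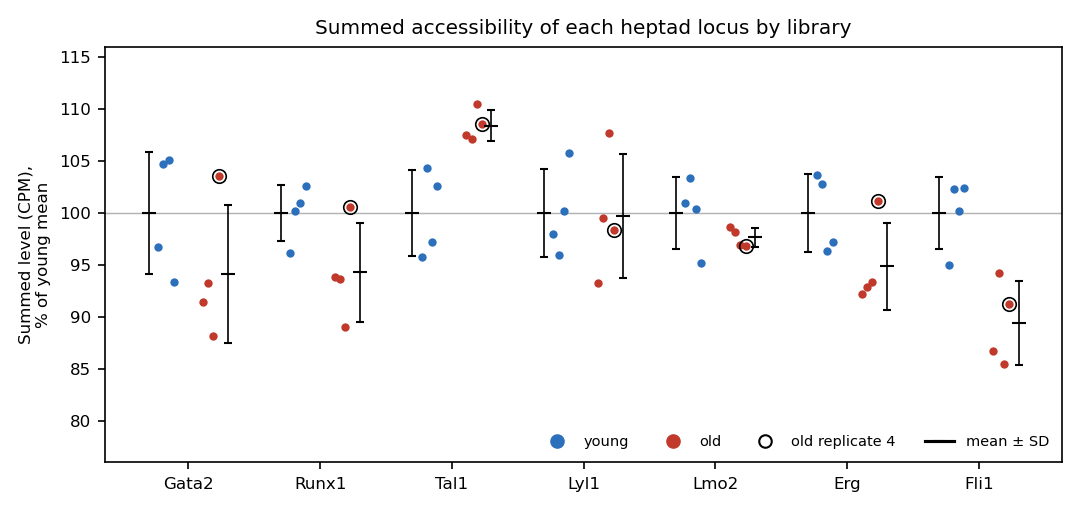
Summed level of each locus in each library (y axis, percent of the young mean of CPM summed over all peaks of the locus; x axis, locus), with young libraries in blue, old libraries in red, old replicate 4 circled, and bars for mean ± SD of 4 libraries. All old points lie above all young points at Tal1 and below them at Fli1, and the y axis does not start at 0.

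Regions were tested as windows of 100000 bases over the whole genome, of which 29.1% were called. Of 15 such windows holding heptad peaks, 1 was higher and 4 were lower in old HSCs. The window on chromosome 16 from 92600001 to 92700000, at Runx1, rose from 141 ± 7.73 to 159 ± 9.25 CPM (SD, n = 4 per group; edgeR adjusted p = 0.0251). Old replicate 4 had 145 CPM there, within the young range of 131 to 148 CPM. On the same locus, the window from 92800001 to 92900000 fell from 249.01 ± 8.09 to 183 ± 30.7 CPM (edgeR adjusted p = 0.00518), and old replicate 4 had 228 CPM there. The 2 Erg windows from 95500001 to 95700000 fell (edgeR adjusted p = 0.0460 and 0.0321), as did the Fli1 window from 32300001 to 32400000 (edgeR adjusted p = 0.0455). In these windows and in the rising Runx1 window the old and young libraries overlapped, and in the falling Runx1 window they did not. Of the 5 calls, that of the falling Runx1 window held with each library left out in turn. The other 4 each lost it with some libraries left out, and the Fli1 window also with both other scalings (edgeR adjusted p = 0.0559 and 0.0665). Some of these windows reach past the loci, and 8 of the 14 peaks of the falling Runx1 window lie outside the Runx1 window of the rule. Inside their loci lie 9 of the 16 peaks of the Erg window from 95500001 and 20 of the 28 of the falling Fli1 window.

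Gata2 is needed for the upkeep of HSCs. Its locus had 4 called peaks of 21 tested, 2 lower at the low-coordinate end and 2 higher at the other end. The strongest, on chromosome 6 from 88055895 to 88057233, had 54.5, 54.1, 51.0 and 59.1 CPM in old replicates 1 to 4 and 68.6, 80.8, 52.3 and 69.2 CPM in young replicates 1 to 4. Its log2 fold change was -0.31 with an SE of 0.10 (adjusted p = 0.0383, edgeR), and young replicate 3 lay inside the old range. The call was lost in 8 of 15 alternatives (adjusted p up to 0.134 over these fits, which include DESeq2 and limma voom). A weak peak from 88071824 to 88072094 fell from 7.08 ± 1.45 to 2.69 ± 1.41 CPM (SD, n = 4 per group; log2 fold change -1.37, SE 0.30, adjusted p = 0.00268 in edgeR). Every old library lay below every young one there, with old replicate 4 nearest to the young libraries at 4.75 CPM. In the main setting this peak would not have passed the count filter without the young libraries, where it was high.

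At the high-coordinate end of the Gata2 window, the peak from 88140282 to 88140819 rose from 6.06, 5.05, 3.75 and 2.59 CPM in the young libraries to 6.87, 9.68, 8.995 and 10.54 CPM in the old ones. That is a log2 fold change of 1.05 with an SE of 0.25 (adjusted p = 0.00469, edgeR) with no overlap, and old replicate 4 was the highest library. The second strongest peak of the locus, from 88152915 to 88153669, had 46.8 ± 4.67 CPM in old against 38.1 ± 5.93 CPM in young HSCs (SD, n = 4 per group; log2 fold change 0.30, SE 0.10, adjusted p = 0.0441 in edgeR). Its groups overlapped, since young replicate 1 had 46.6 CPM, and the call was lost in 9 of 15 alternatives. The lower peaks and the higher peaks lay 68.2 kb apart at the nearest, with 10 tested peaks between them that were not called.

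One uncalled Gata2 peak had a larger difference in level than any called peak of the locus, and it was chosen for mention after its values were seen. From 88066311 to 88067512 the old libraries had 12.2, 9.47, 9.23 and 34.9 CPM and the young libraries 32.4, 26.7, 58.5 and 29.9 CPM. Old replicates 1 to 3 lay below every young library, and old replicate 4 lay within the young range. The log2 fold change was -1.13 with an SE of 0.52 (adjusted p = 0.190, edgeR), and without old replicate 4 it was -1.82 ± 0.37 (edgeR adjusted p = 0.0122). Young replicate 3 was the highest library there.

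Runx1 encodes the DNA-binding partner of CBFB, and in the RefSeq table it lies on the minus strand, so transcription runs from high to low coordinates. Of its 17 tested peaks 1 rose and 1 fell, 200.2 kb apart. The peak that rose, on chromosome 16 from 92620786 to 92621917, had 71.8, 77.2, 72.0 and 65.3 CPM in old and 46.6, 55.8, 58.5 and 50.2 CPM in young libraries. All old libraries were above all young ones, with a log2 fold change of 0.44 with an SE of 0.08 (adjusted p = 0.000596, edgeR). It stayed called in all 15 alternatives.

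The Runx1 peak that fell, from 92822152 to 92823185, was the strongest of the locus. It had 56.8, 53.0, 47.3 and 87.4 CPM in old and 89.8, 98.5, 94.5 and 98.7 CPM in young libraries. The log2 fold change was -0.64 with an SE of 0.17 (adjusted p = 0.0357, edgeR) and -0.86 without old replicate 4 (edgeR adjusted p = 1.02e-09). Old replicate 4 stood just under the young range and far above the other 3 old libraries. The call was lost with any one of 6 other libraries left out, at an edgeR adjusted p of up to 0.0927. The second strongest peak, from 92801013 to 92802517, lay 20.9 kb away and was not called, at 62.0 ± 3.24 CPM in old against 65.7 ± 8.13 CPM in young HSCs (SD, n = 4 per group; 95% interval of the log2 fold change -0.25 to 0.09).

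**Figure D3:**
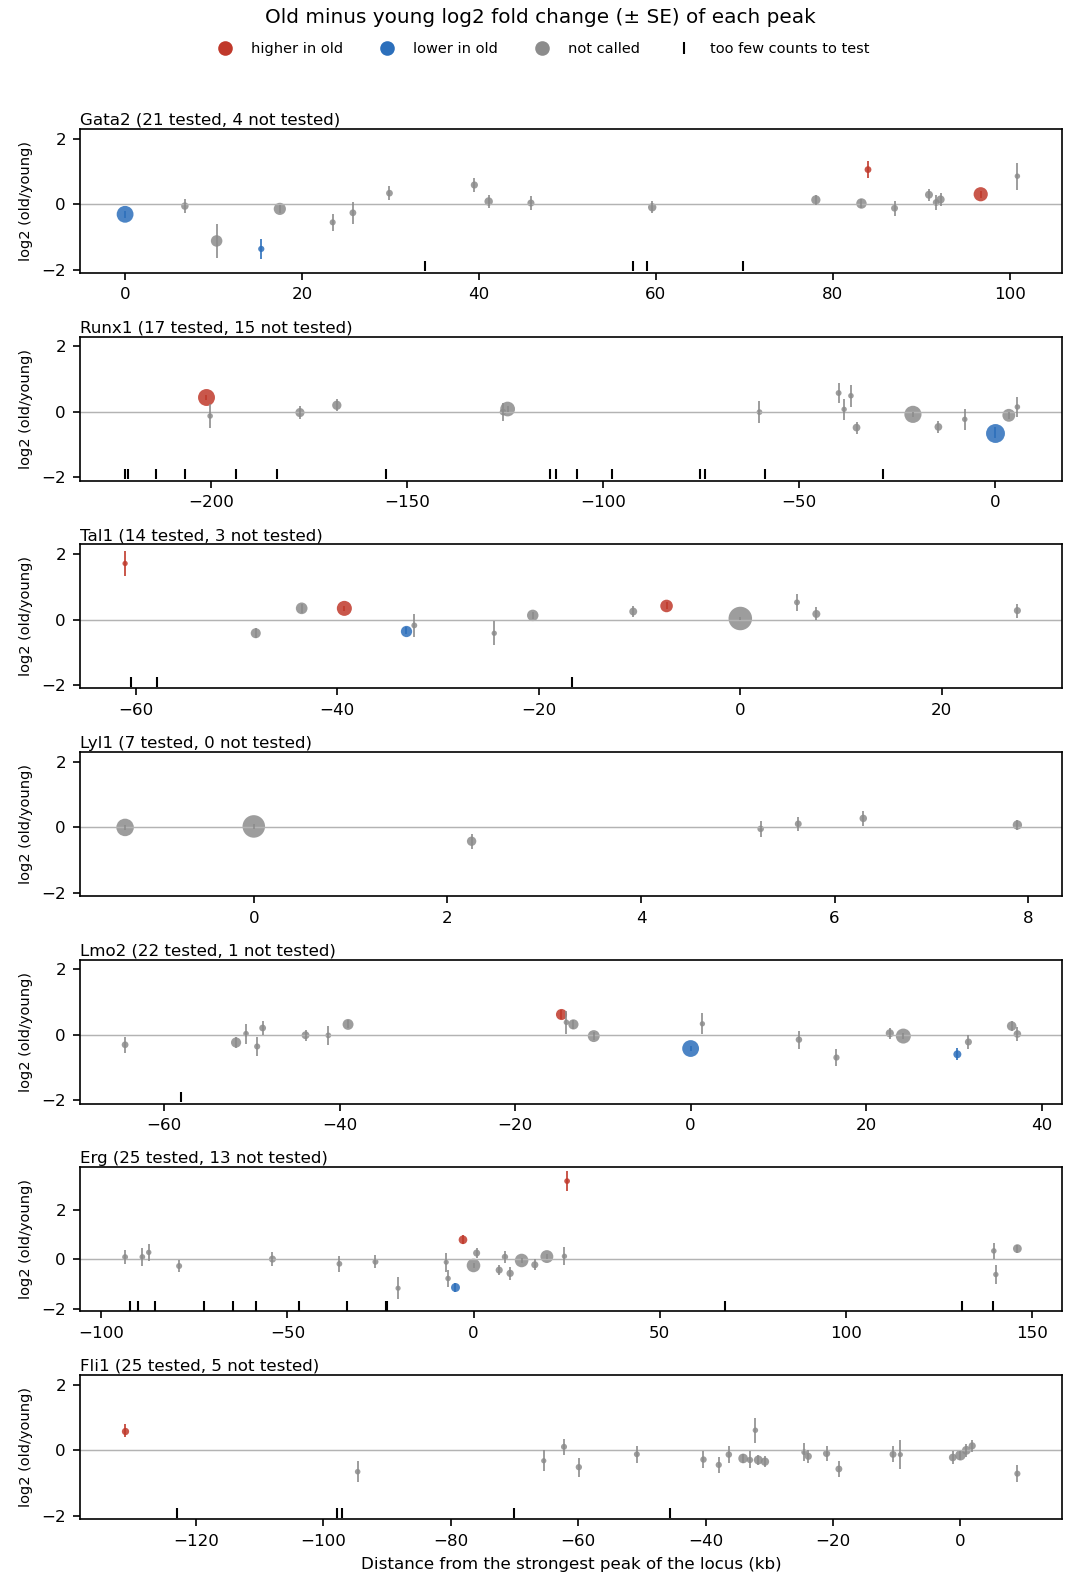
Old minus young log2 fold change of each tested peak (y axis, with SE bars) against distance from the strongest peak of its locus (x axis, kb), 1 panel per locus, with red for higher, blue for lower and grey for not called, point area growing with mean CPM, and ticks for peaks not tested. Called peaks in both directions lie within single panels, and the Lyl1 panel has none.

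Tal1 had 4 called peaks of 14 tested, with 3 higher and 1 lower in old. Its protein, also named SCL, is needed for blood cells to form in the embryo. The strongest peak of the locus, on chromosome 4 from 114768013 to 114769765, stood at the 99.7th percentile of all tested peaks and was not called. It had 125 ± 6.23 CPM in old against 122 ± 5.32 CPM in young HSCs (SD, n = 4 per group), and the 95% interval of its log2 fold change was -0.09 to 0.15. The second strongest, from 114729019 to 114730181, rose from 38.5, 45.9, 45.3 and 40.3 CPM in young to 49.9, 52.2, 57.7 and 55.2 CPM in old libraries. Here old replicate 4 was among the other old libraries, and the log2 fold change was 0.34 with an SE of 0.08 (adjusted p = 0.00601, edgeR).

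Some 4.97 kb further along, the Tal1 peak from 114735147 to 114736272 changed the other way. It had 20.9, 21.2, 21.7 and 25.2 CPM in old and 27.5, 29.5, 28.0 and 27.8 CPM in young libraries, with a log2 fold change of -0.34 with an SE of 0.11 (adjusted p = 0.0325, edgeR), and its call was lost in 9 of 15 alternatives. The peak from 114761155 to 114761989, 7.3 kb before the strongest, rose from 27.8 ± 2.24 to 37.2 ± 4.58 CPM (SD, n = 4 per group; log2 fold change 0.41, SE 0.11, adjusted p = 0.00872 in edgeR). Its lowest old library, replicate 4 at 31.2 CPM, was just above its highest young library at 31.1 CPM. A weak peak from 114707672 to 114708015 rose from 1.12 ± 0.472 to 3.78 ± 1.18 CPM, on 20 counts in young and 67 in old libraries in all (log2 fold change 1.71, SE 0.39, adjusted p = 0.00355 in edgeR). That peak passed the count filter only through the old libraries, where it was high. In the RefSeq gene order Stil and Pdzk1ip1 are the neighbours of Tal1, and which of these peaks belong to them was not determined.

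Lyl1, the relative of Tal1, had no called peak among 7 tested in edgeR, with 0 at an unadjusted p below 0.05, and DESeq2 and limma voom also called 0. Its strongest peak, on chromosome 8 from 87224940 to 87225811, had 107, 122, 124 and 103 CPM in old and 104, 107, 112 and 125 CPM in young libraries. The groups spanned nearly the same range, and the 95% interval of the log2 fold change was -0.12 to 0.17. The peak from 87223763 to 87224329 had 66.5 ± 3.90 CPM in old against 66.8 ± 2.92 CPM in young HSCs (SD, n = 4 per group; 95% interval -0.15 to 0.14). These 2 peaks held 76.8% of the level of the locus. Without old replicate 4 the third peak, from 87227442 to 87227809, was called lower (log2 fold change -0.70, SE 0.18, adjusted p = 0.00418 in edgeR), with 20.9 CPM in that library, within the young range. Trmt1 and Nfix flank Lyl1 in the RefSeq gene order.

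Lmo2, the bridging protein, had 1 higher and 2 lower peaks of 22 tested. Its strongest peak, on chromosome 2 from 103785036 to 103786788, fell from 70.4, 65.7, 75.5 and 68.5 CPM in young to 53.5, 51.7, 43.1 and 61.0 CPM in old libraries. No old library reached the young range, and the log2 fold change was -0.42 with an SE of 0.09 (adjusted p = 0.00204, edgeR), called in all 15 alternatives. By contrast the peak from 103770842 to 103771500, 13.5 kb before it, had 27.2, 34.7, 35.3 and 21.5 CPM in old and 20.5, 21.9, 18.5 and 15.9 CPM in young libraries (log2 fold change 0.63, SE 0.15, adjusted p = 0.00659 in edgeR). Old replicate 4 was inside the young range there, so the groups overlapped. The third called peak, from 103816129 to 103816474, fell from 12.9 ± 1.81 to 8.62 ± 1.57 CPM (SD, n = 4 per group; edgeR adjusted p = 0.0264), and lost its call in 5 of 14 alternatives. The second strongest peak, from 103809447 to 103810844, was not called, at 47.3 ± 7.005 CPM in old against 48.4 ± 4.27 CPM in young HSCs. Without old replicate 4 the locus had 3 peaks higher and 5 lower.

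Erg held the largest relative change among the called heptad peaks. On chromosome 16, the peak from 95686259 to 95686597 had 7.38, 5.89, 7.38 and 4.55 CPM in old and 1.17, 0.421, 1.0001 and 0.215 CPM in young libraries, on 111 and 12 counts in all. It was close to closed in young cells and above all of them in each old library, with a log2 fold change of 3.15 with an SE of 0.39 (adjusted p = 1.47e-05, edgeR). ERG is an ETS factor needed for HSC maintenance, and this peak lay 25.1 kb from the strongest peak of its locus. It was called in all 14 alternatives that could test it. In the main setting it passed the count filter only through the old libraries, where it was high.

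A pair of Erg peaks 1.75 kb apart, with no peak tested between them, changed in opposite directions. The peak from 95656131 to 95656503 fell from 21.2, 19.1, 22.3 and 17.02 CPM in young to 6.87, 7.15, 9.69 and 12.4 CPM in old libraries (log2 fold change -1.13, SE 0.18, adjusted p = 0.000206 in edgeR). Its neighbour from 95658250 to 95658660 rose from 12.4, 10.7, 7.75 and 7.97 CPM to 15.02, 17.04, 19.8 and 15.1 CPM (log2 fold change 0.78, SE 0.18, adjusted p = 0.00358 in edgeR). At neither did the groups overlap, and both were called in all 15 alternatives. Next to them stood the strongest Erg peak, from 95660758 to 95661810, which was not called with 8 libraries. It had 27.2, 37.02, 33.4 and 43.4 CPM in old and 40.1, 44.0, 41.8 and 43.1 CPM in young libraries (log2 fold change -0.25, SE 0.11, adjusted p = 0.110 in edgeR). Without old replicate 4, which was within the young range there, it was called lower (log2 fold change -0.36, edgeR adjusted p = 0.00796). The second strongest, from 95673925 to 95674497, had 37.8 ± 3.61 CPM in old against 39.1 ± 1.15 CPM in young HSCs (SD, n = 4 per group) and was not called.

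Fli1, the ETS relative of Erg, had 1 called peak of 25 tested. Of the 25 fitted changes 20 were below 0, against 35844 of 73164 over all tested peaks, with a median of -0.18 against 0.01. Such a lean was not particular to Fli1. In the flanks of Lmo2 24 of 29 were below 0 (median -0.17), and in those of Tal1 17 of 21 were above 0. These counts were not tested. The called Fli1 peak was higher in old. On chromosome 9 from 32216556 to 32217511, at the edge of the window, it had 10.2, 11.4, 11.1 and 7.03 CPM in old and 7.46, 6.10, 6.25 and 6.25 CPM in young libraries (log2 fold change 0.60, SE 0.21, adjusted p = 0.0417 in edgeR). Old replicate 4 fell inside the young range, and the call was lost in 9 of 14 alternatives. The strongest Fli1 peak, from 32347671 to 32348690, had 20.01 ± 1.19 CPM in old against 22.3 ± 3.18 CPM in young HSCs (SD, n = 4 per group; 95% interval of the log2 fold change -0.42 to 0.12). The second, from 32313763 to 32314373, had 16.2 ± 1.01 against 19.2 ± 2.46 CPM (95% interval -0.53 to 0.04). Neither was called.

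**Figure D4:**
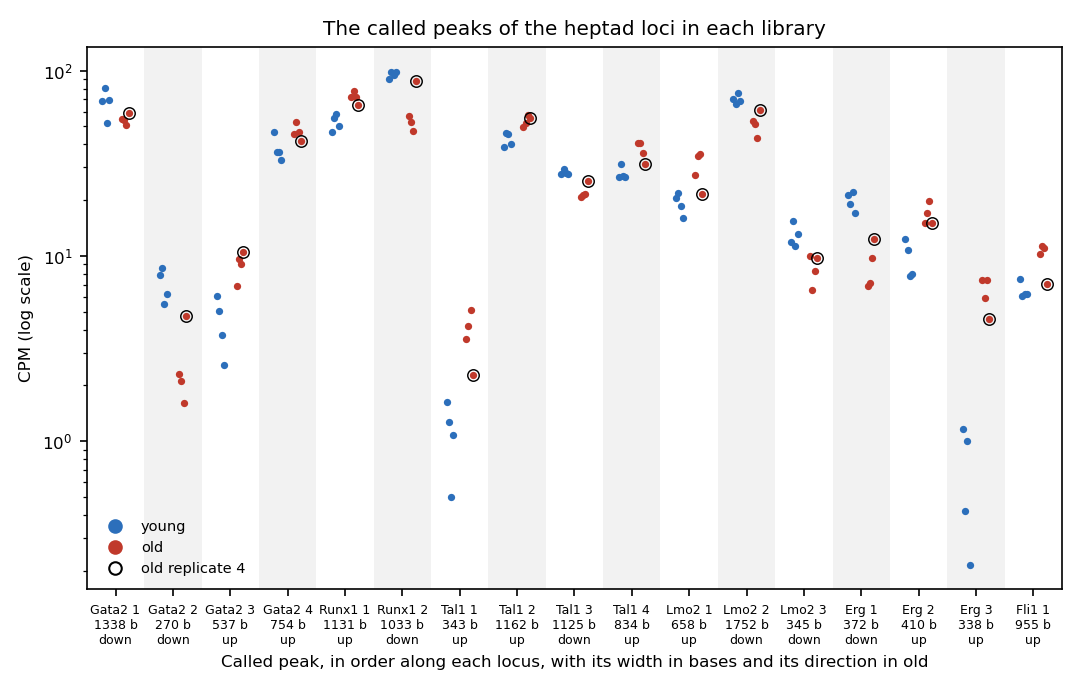
Level of each of the 17 called heptad peaks in every library (y axis, CPM on a log scale; x axis, peaks numbered along each locus with their width in bases and their direction in old), with young libraries in blue, old libraries in red and old replicate 4 circled. The third Erg peak shows the widest gap between groups, and old replicate 4 lies nearest to the young libraries at many of the peaks.

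Gata2, Runx1, Tal1, Lmo2 and Erg each had both higher and lower peaks. Over all tested peaks of the genome the calls were also split nearly evenly, at 10.0% higher and 10.4% lower.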

How the data were processed

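Sorted HSCs were profiled by ATAC-seq (Omni-ATAC, Nextera libraries, per the labels' protocols). The deposited table holds whole-number counts of reads, without normalization, for 1 set of peaks in 8 libraries. The submitters' processing notes list Bowtie2, MACS2, Picard, SAMtools, FastQC, Trim Galore and the build mm9 with no version or role. Peak merging, read counting and any transposase shift are steps not given in the sources used here. Peaks drawn from the compared libraries can favour sites open in either group.

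Peaks were filtered with edgeR 4.0.16 filterByExpr (minimum count 10, minimum total 15), keeping 73164 peaks with 94.2% of counts. They were scaled by TMM, and tested with robust glmQLFit and glmQLFTest (R 4.3.3) on a single group term. The p-values were adjusted over all tested peaks. Windows of 100000 bases were tested alike. Intervals are 95% and, like SEs, come from that fit. CPM values were computed here with effective library sizes of the tested peaks.

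Named peaks are, per locus, the 2 strongest and up to 5 called, unless said otherwise. The members, lists and rules were chosen with earlier results of these data known. Alternatives were DESeq2 1.42.0 size factors and test, total count scaling, limma 3.58.1 voom, other count filters, an adjusted p below 0.01, a replicate block and each library left out. Gene annotation, promoter peaks, motifs in peaks, other genes of the network and markers of other cell types were not analysed here, because no mm9 annotation or sequence was used.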

Additional observations from a re-analysis of the deposited data

Results flagged for a closer look

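In 66 groups of 4 values, the locus sums and named peaks in old and young libraries, 3 had a library far from the other 3, where chance gives about 1 in 20, or 3.3. Old replicate 4 had the highest sum over the Erg locus among old libraries, 264 CPM against 240.3 to 243 CPM. Young replicate 2 was the highest young library at the Tal1 peak from 114761155, with 31.1 CPM against 26.5 to 27.0 CPM. Young replicate 1 was the highest young library at the Fli1 peak from 32216556, with 7.46 CPM against 6.10 to 6.25 CPM.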

How the results depend on the processing

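Of the 17 called heptad peaks 11 stayed called in every alternative that tested them, and all 17 kept their direction. With each library left out in turn, 7 to 15 peaks were called higher, 3 to 17 lower and 10 to 32 in all. The largest values are without old replicate 4. A mean count of at least 50 left 5 higher and 11 in all, of 47 heptad peaks tested. The Gata2 peak from 88152915 was tested there and lost its call. The DESeq2 test gave 4 lower. An adjusted p below 0.01 left 3 lower and 11 in all. The ratio of summed level at Tal1 was 1.07 to 1.10 and at Lmo2 0.961 to 0.988 with each library left out, and at Lmo2 0.963 with total count scaling. Whether same replicate numbers pair the libraries is not stated in the labels and was not settled here. Same-numbered pairs had correlations of deviations from their group mean of -0.014 to 0.179, and other pairs -0.1265 to 0.0788. The highest was that of old and young replicate 4. With a replicate block 19 heptad peaks were called, 11 higher and 8 lower. That is 14.5%, against 22.9% of all tested peaks (13.0% and 20.5% without the block). The Gata2 window from 88000001 was called lower with the block (log2 fold change -0.14, edgeR adjusted p = 0.0315, without the block 0.0596).

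Signs changed at uncalled values near 0. The log2 fold change of the Lmo2 peak from 103809447 became 0.00149 without a count filter. That of the Tal1 peak from 114768013 became -0.0157 at a mean count of at least 50. That of the Lyl1 peak from 87223763 became 0.0283 without a count filter and 0.0155 in the DESeq2 test. That of the Lyl1 peak from 87224940 became -0.00431 with total count scaling and -0.0228 at a mean count of at least 50. With DESeq2 size factors and total count scaling, the window on chromosome 16 from 95800001 became 0.00162 and 0.0132, and that on chromosome 8 from 87200001 0.00307 and 0.0147. The window on chromosome 2 from 103700001 became 0.0108 with total count scaling. With each library left out in turn, the log2 fold change was -0.0667 to 0.0288 at the Erg peak from 95673925, -0.114 to 0.0631 at the Lmo2 peak from 103809447, -0.0348 to 0.0310 at the Lyl1 peak from 87223763 and -0.00641 to 0.0816 at that from 87224940. Among windows it was -0.0434 to 0.0380 on chromosome 16 from 95800001, -0.00508 to 0.0768 on chromosome 9 from 32200001, -0.0217 to 0.0379 on chromosome 6 from 88100001, -0.0282 to 0.0102 on chromosome 2 from 103700001 and -0.0215 to 0.0177 on chromosome 8 from 87200001. The cause of these sign changes was not tested.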

Other observations

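Another 15 heptad peaks, not among the 17 called in the report, were called when old replicate 4 was left out, 5 higher and 10 lower. They were picked by that result, so their values are a description. At Lmo2 these included 3 lower and 2 higher peaks. The peak from 103746338 to 103747434 had 26.1 ± 2.79 CPM in old against 20.9 ± 2.57 CPM in young HSCs with all 8 libraries (SD, n = 4 per group), and its groups did not overlap. At Runx1 the peak from 92787108 to 92787619 had 8.15 ± 1.28 against 11.4 ± 1.27 CPM, also without overlap. The same held for the Erg peak from 95806702 to 95808107, at 15.9 ± 1.26 against 11.8 ± 1.96 CPM. At all the others of the 15 peaks the groups overlapped.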
